A study of Mus musculus with 5 samples.

Results

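The peaks described here are all ChIP-seq peaks on mouse chromosomes 10 and 15, taken from the peak lists of E2F1, E2F3A and E2F3B. They numbered 1562 of the 10489 peaks in the 3 lists, with 654 from the E2F1 list, 311 from the E2F3A list and 597 from the E2F3B list. The chromosomes were chosen by a measured value, the number of E2F1 peaks divided by the number of E2F3B peaks, which was highest on these 2 autosomes. That contrast is therefore given as a description throughout, with no test.

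ChIP-seq was done in mouse embryonic fibroblasts (MEFs) of a mixed background of FVB/NT, 129S1/Svlmj and C57BL/6NT, harvested while proliferating asynchronously in serum. Each of 3 groups overexpressed 1 protein, E2F1, E2F3A or E2F3B, and was represented by 1 library and 1 peak list. The E2F1 cells were precipitated with an E2F1 antibody, and the E2F3A and E2F3B cells shared an E2F3 antibody. The labels name neither the promoter that drove the overexpression nor the state of the cells' own E2F genes, and a peak list cannot show fibroblast markers. The 2 knockout samples of the series, of genotypes 1-/- and 3-/-, were not analysed here.

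E2F proteins are transcription factors that bind, with DP partner proteins, at promoters of genes for DNA replication, nucleotide synthesis and entry into S phase. E2F1 and the E2F3A isoform are induced as cells leave quiescence, while E2F3B, made from an internal promoter of the same gene, is also present in resting cells. The isoforms share their DNA-binding domain and differ at the N-terminus, and all of these proteins are held in check by the retinoblastoma protein.

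E2F1 peaks were dense on both chromosomes, and the unshared ones made up most of them. Chromosome 10 held 331 E2F1, 152 E2F3A and 317 E2F3B peaks, or 2.61, 1.2 and 2.5 peaks per Mb of the 126.6 Mb spanned by peaks. Chromosome 15 held 323 E2F1, 159 E2F3A and 280 E2F3B peaks, or 3.23, 1.59 and 2.80 per Mb over 99.9 Mb. On the other 17 autosomes together the densities were 1.42 E2F1, 0.770 E2F3A and 1.87 E2F3B peaks per Mb. The chromosomes were thus richer in peaks of all 3 lists than the other autosomes together, and the gap was widest for E2F1. Chromosome 17, which was not chosen, was denser than chromosome 10 in all 3 lists, with 2.74 E2F1, 1.48 E2F3A and 3.02 E2F3B peaks per Mb. The E2F1 list was shorter than the E2F3B list, with 3787 against 4704 peaks, and still led on these 2 chromosomes.

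The E2F1 to E2F3B peak ratio was 1.04 on chromosome 10 and 1.15 on chromosome 15, against 0.759 over the other autosomes. Just below the chosen pair were chromosome 14 at 0.921, chromosome 3 at 0.908 and chromosome 17 at 0.906, and chromosome 1 was lowest at 0.584. The X chromosome, which was not among the autosomes compared, had 0.962. Chromosome 15 also had the highest E2F3A to E2F3B ratio of the 19 autosomes, at 0.568 (95% Wilson interval 0.468 to 0.690), and chromosome 10 ranked 4 at 0.479 (0.395 to 0.582). The other autosomes together gave 0.412 (0.389 to 0.437). With only the wider 50% of each list kept, chromosome 10 had a ratio of 0.888, below 1, and chromosome 15 had 1.19. E2F3A took no part in the choice of chromosomes, but the E2F3B counts in this second ratio did. Intervals here and below cover the counting error of peaks only, not the spread between libraries, which 1 library per protein cannot show.

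The next comparison asked which peaks made up the high ratio. A peak is called shared when it overlaps a peak of the other list of the pair by at least 1 bp, and unshared otherwise. Chromosome 15 held 2.10 unshared E2F1 peaks per Mb and chromosome 10 held 1.65, the highest values of the 19 autosomes, ahead of chromosome 17 at 1.42. The other autosomes together held 0.778. Unshared E2F3B peaks were not low on these chromosomes, at 1.62 per Mb on chromosome 15 and 1.49 on chromosome 10 against 1.19 on the other autosomes, and 3 other autosomes exceeded chromosome 15, chromosome 8 most with 1.84. Among the wider 50% of peaks, however, unshared E2F1 peaks were fewer than unshared E2F3B peaks on chromosome 10, at a ratio of 0.845. Over whole lists, these chromosomes held many unshared E2F1 peaks and not few unshared E2F3B peaks. Shared peaks enter both lists in near numbers, with 122 and 128 on chromosome 10 and 113 and 118 on chromosome 15. A high ratio must therefore show among unshared peaks, so this lead is not independent of the choice of chromosomes. From 30 to 70 Mb of chromosome 15, a stretch taken up below, unshared E2F3B peaks were at 0.975 per Mb, under the value of the other autosomes.

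E2F3A peaks found in no other list were also densest on the chosen pair. They reached 0.961 per Mb on chromosome 15 and 0.782 on chromosome 10, the highest 2 autosomes, against 0.718 on chromosome 8 and 0.413 on the other autosomes together. Of the E2F3A peaks of the 2 chromosomes, 195 of 311 (62.7%, interval 57.2 to 67.9) overlapped neither other list, against 53.7% (51.3 to 56.1) elsewhere. Some chromosomes that were not chosen had as high a share of lone E2F3A peaks, among them chromosome 18 with 70% and chromosome 3 with 65.6%. An unshared peak is one not called in the other list, which does not show that the site was unbound.

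**Figure D1:**
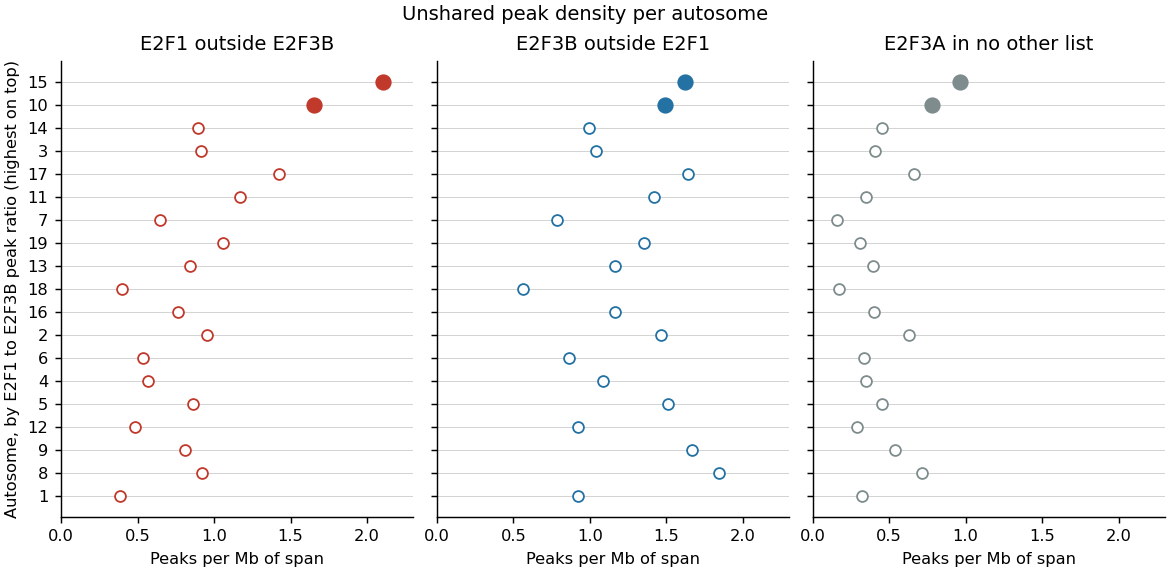
Unshared peaks per Mb of peak span (x axis) on each of the 19 autosomes, ordered by their E2F1 to E2F3B peak ratio with the highest on top; filled points are chromosomes 10 and 15, and each point is 1 chromosome in 1 library. Chromosomes 15 and 10 lead in unshared E2F1 peaks (2.10 and 1.65) and in lone E2F3A peaks (0.961 and 0.782), but not in unshared E2F3B peaks (1.62 and 1.49). The lead in unshared E2F1 peaks is not independent of the ratio that chose the chromosomes.

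When peaks of all lists that overlapped were joined, the 2 chromosomes held 1200 regions. Regions of E2F1 alone formed the most frequent kind, with 411 (34.3%, interval 31.6 to 37.0), against 25% (24.0 to 26.1) of the regions of the other autosomes. Regions of E2F3B alone numbered 335 (27.9%, 25.5 to 30.5), against 36.9% (35.8 to 38.1). These shares of E2F1 alone and of E2F3B alone are not independent of the ratio that chose the chromosomes. Per Mb, regions of E2F3B alone were denser here, at 1.48 against 1.12. Regions of E2F3A alone numbered 195 (16.3%, 14.3 to 18.4), against 13.7% (12.9 to 14.5). Regions of all 3 proteins and of E2F1 with E2F3B took near shares in both places. There were 88 regions of all 3 proteins (7.33%, 5.99 to 8.95, against 8.36%) and 147 of E2F1 and E2F3B (12.3%, 10.5 to 14.2, against 12.7%). Per Mb both kinds were denser here, at 0.389 against 0.253 and at 0.649 against 0.385 in that order. The 2 E2F3 isoforms without E2F1 held 16 regions (1.33%, 0.822 to 2.15), against 2.55% (2.19 to 2.96). Per Mb this kind was near in both places, at 0.0707 against 0.0769, while every other kind was denser here.

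Sharing was lower than elsewhere on the E2F1 side and not on the E2F3B side. An E2F3B peak lay over 235 of the 654 E2F1 peaks (35.9%, interval 32.3 to 39.7), whereas on the other autosomes the share was 45%. The share was 36.9% (31.8 to 42.2) on chromosome 10 and 35.0% (30 to 40.3) on chromosome 15. Chromosome 3, which was not chosen, had a lower share of 31.4%, and chromosomes 14 and 18 had 36.8% and 36.0%, so a low share was not found on the chosen pair alone. In the opposite direction 246 of 597 E2F3B peaks (41.2%, 37.3 to 45.2) overlapped an E2F1 peak, against 36% elsewhere. When sharing required peak centres within 100 bp, these shares were 19.6% against 24.8% for E2F1 and 21.4% against 18.8% for E2F3B. A chromosome with more E2F1 peaks per E2F3B peak gives E2F3B more partners, so these shares are not independent of the ratio that chose the chromosomes. E2F1 peaks overlapped an E2F3A peak in 14.7% of cases (12.2 to 17.6), against 19.4% (18 to 20.8) elsewhere, and chromosomes 18, 3 and 19 had lower shares than either chosen chromosome, at 4%, 9.66% and 12.5%.

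Windows of 5 Mb, counted from the chromosome start and filled by peak centres, showed where along the chromosomes the E2F1 peaks lay. On chromosome 10, 14 of 26 windows held more E2F1 than E2F3B peaks, 1 held equal numbers and 11 held more E2F3B peaks. On chromosome 15, 10 of 21 windows held more E2F1 peaks and 11 held more E2F3B peaks. On the other autosomes 101 of 453 windows did so, a background of 22.3%, with a median of 20% per chromosome. Among these, chromosome 3 had 17 of 32 such windows (53.1%) although its ratio was under 1. The windows where E2F1 led lay along most of chromosome 10, whereas on chromosome 15 all 10 lay before 75 Mb. With counts divided by their totals on the other autosomes, which allows for the longer E2F3B list, E2F1 led in 88.5% of the windows of chromosome 10, 81.0% of those of chromosome 15 and 47.0% of those elsewhere.

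**Figure D2:**
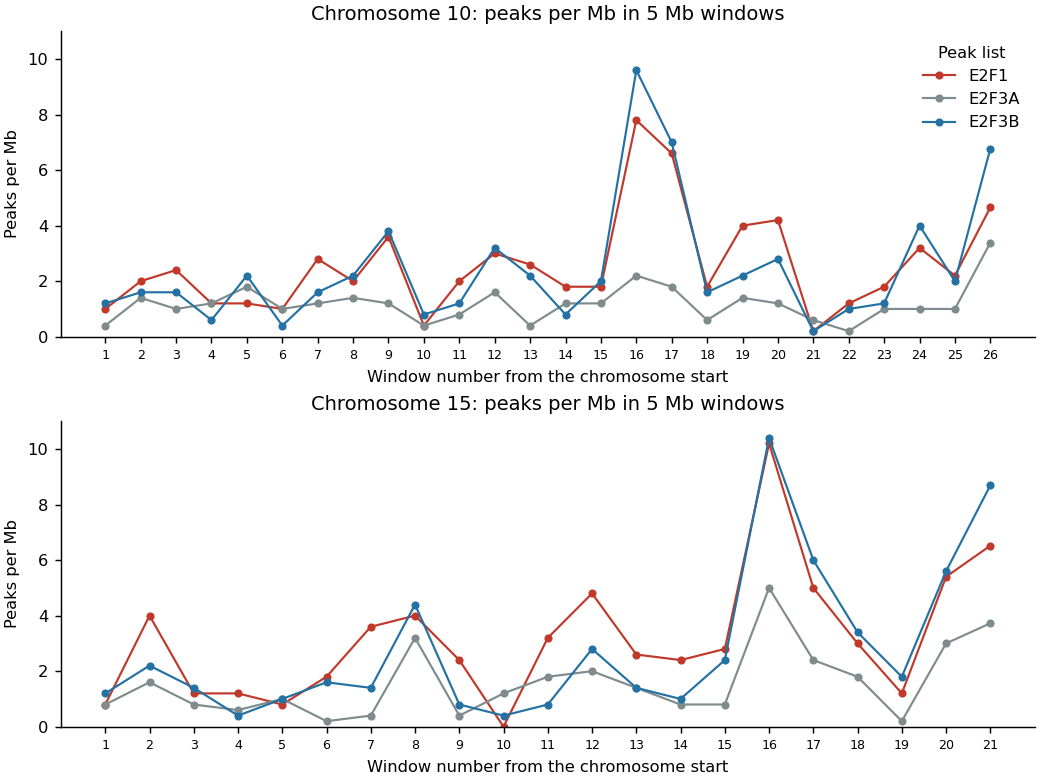
Peaks per Mb (y axis) in 5 Mb windows numbered from the chromosome start (x axis) on chromosomes 10 and 15, 1 line per peak list. The densest windows of both chromosomes, number 16, hold 7.8 and 10.2 E2F1 peaks per Mb and slightly more E2F3B peaks (9.6 and 10.4), while the E2F1 line lies above the E2F3B line in many sparser windows, among them windows 19 and 20 of chromosome 10 and windows 2, 7, 9 and 11 to 14 of chromosome 15.

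The 2 chromosomes differed in how even the surplus was. The cumulative share of E2F1 peaks never departed from that of E2F3B peaks by more than 5.04 percentage points on chromosome 10, at 116.4 Mb, a smaller gap than on 15 of the 19 autosomes. On chromosome 15 the gap reached 14.8 points at 72.3 Mb, the largest of all autosomes, ahead of chromosome 3 with 13.8 points. The gaps were not adjusted for peak number, and small lists can give larger gaps. Chromosome 18, with 50 E2F1 and 63 E2F3B peaks, had 11.4 points. By position from the start to the end of the span, cut into 4 equal parts, chromosome 10 had E2F1 to E2F3B ratios of 1.26, 1.00, 1.08 and 0.916. Chromosome 15 had 1.24, 1.69, 1.27 and 0.901. On the other autosomes the 4 parts gave 0.775, 0.735, 0.737 and 0.785, so the last part of both chosen chromosomes was the one nearest to the rest of the genome.

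**Figure D3:**
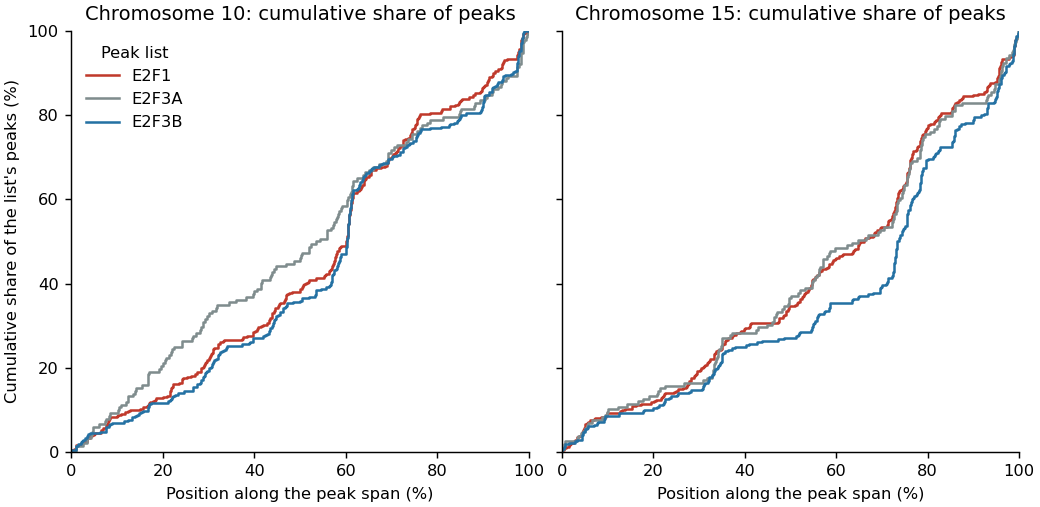
Cumulative share of the peaks of each list (y axis, %) against position along the span from the first to the last peak (x axis, %) on chromosomes 10 and 15. On chromosome 10 the E2F1 and E2F3B curves stay within 5.04 points of each other, and on chromosome 15 the E2F1 curve runs ahead by up to 14.8 points before the dense last part.

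On chromosome 15 the surplus formed a broad stretch. From 30 to 70 Mb, limits set after the window values were seen, there were 115 E2F1, 56 E2F3A and 65 E2F3B peaks, a ratio of 1.77, and 6 of the 8 windows held more E2F1 peaks. The first 30 Mb held 49 E2F1 and 39 E2F3B peaks, and the remainder from 70 Mb on held 159 and 176, a ratio of 0.903. Unshared E2F1 peaks numbered 2.25 per Mb in the middle stretch and 2.41 per Mb in the last one. Unshared E2F3B peaks numbered 0.975 and 2.80 per Mb in the same stretches. Between the middle and the peak-dense end, the density of unshared E2F3B peaks thus differed more than that of unshared E2F1 peaks.

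The window with the largest surplus on chromosome 15 was that from 50 to 55 Mb, with 16 E2F1, 9 E2F3A and 4 E2F3B peaks, of which 2 E2F1 peaks were shared with E2F3B. It was followed by 30 to 35 Mb with 18 E2F1, 2 E2F3A and 7 E2F3B peaks, and 55 to 60 Mb with 24 E2F1, 10 E2F3A and 14 E2F3B peaks. In each of these windows all 5 bins of 1 Mb held an E2F1 peak, and at most 5 E2F1 peaks lay within any 100 kb, so none was a single cluster. The windows from 50 to 75 Mb formed a run of 5 in a row with more E2F1 peaks, the longest on any autosome and 1 longer than the run of chromosome 3.

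On chromosome 10 the largest surplus lay in neighbouring windows, 90 to 95 Mb with 20 E2F1, 7 E2F3A and 11 E2F3B peaks and 95 to 100 Mb with 21, 6 and 14. The window from 30 to 35 Mb followed, with 14 E2F1, 6 E2F3A and 8 E2F3B peaks. In the window from 95 to 100 Mb 19 of the 21 E2F1 peaks were unshared with E2F3B, and in the one before it 13 of 20 were. E2F1 peaks filled all 5 bins of 1 Mb in each of these windows, with at most 4 peaks within 100 kb.

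The 3 windows of largest surplus held 22 of the 51 surplus E2F1 peaks summed over the windows of chromosome 10 where E2F1 led (43.1%), and 33 of 70 on chromosome 15 (47.1%). The median over the other autosomes was 77.3%, but their sums were small, with 11 peaks at the median and 40 on chromosome 3, where the 3 windows held 35.0%. These shares depend on the window size, being 20.6% and 26.1% on chromosomes 10 and 15 with 2 Mb windows and 75% and 72.1% with 10 Mb windows. Without the 3 windows of 5 Mb the ratio was 0.972 on chromosome 10 (276 against 284 peaks) and 1.04 on chromosome 15 (265 against 255). Treated alike, the other autosomes reached at most 0.868, on chromosome 14. Leaving out any single window kept the ratio between 1.02 and 1.09 on chromosome 10 and between 1.11 and 1.2 on chromosome 15. No single 5 Mb window therefore carried the ratio above 1.

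In the window densest in each list, E2F3B led on both chromosomes, narrowly so on chromosome 15. It did not lead over all well-filled windows. Windows with more than 3 E2F3A peaks, the autosomal median, held 295 E2F1 and 282 E2F3B peaks on chromosome 10 and 272 and 250 on chromosome 15. The window of chromosome 10 from 75 to 80 Mb, the densest there for E2F1 and E2F3B, held 39 E2F1, 11 E2F3A and 48 E2F3B peaks, and with the window after it 72 E2F1 and 83 E2F3B peaks. The last window, from 125 Mb to the final peak at 129.7 Mb, was the densest for E2F3A, with 22 E2F1, 16 E2F3A and 32 E2F3B peaks, and had the largest surplus of E2F3B. Of the 3 windows most in favour of E2F3B, that from 20 to 25 Mb held the fewest peaks of each list. It had 6 E2F1, 9 E2F3A and 11 E2F3B peaks. On chromosome 15 the densest window of all 3 lists was that from 75 to 80 Mb, with 51 E2F1, 25 E2F3A and 52 E2F3B peaks. The windows most in favour of E2F3B there were 100 Mb to the last peak at 103.2 Mb with 21 E2F1, 12 E2F3A and 28 E2F3B peaks, 80 to 85 Mb with 25, 12 and 30, and 90 to 95 Mb with 6, 1 and 9.

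Shared peaks gathered in the same crowded windows. The other autosomes were alike in this. There, 50.8% of E2F1 peaks were shared with E2F3B in windows with more than 3 E2F3A peaks, against 34.7% in the rest. Between 75 and 85 Mb of chromosome 10, 40 of 72 E2F1 peaks were shared with E2F3B (55.6%, interval 44.1 to 66.5), and in the last window 15 of 22 (68.2%, 47.3 to 83.6) were. In the first 75 Mb of that chromosome the share was 43 of 144 (29.9%, 23.0 to 37.8), and from 85 to 125 Mb it was 24 of 93 (25.8%, 18 to 35.5). On chromosome 15, 79 of 159 E2F1 peaks beyond 70 Mb were shared (49.7%, 42.0 to 57.4), against 25 of 115 between 30 and 70 Mb (21.7%, 15.2 to 30.1) and 9 of 49 in the first 30 Mb (18.4%, 9.98 to 31.4). These stretches were set after the window values were seen. The share of E2F3B peaks that were shared with E2F1 was 47.2% (39.9 to 54.5) beyond 70 Mb, 40% (29.0 to 52.1) in the middle and 23.1% (12.6 to 38.3) in the first 30 Mb.

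**Figure D4:**
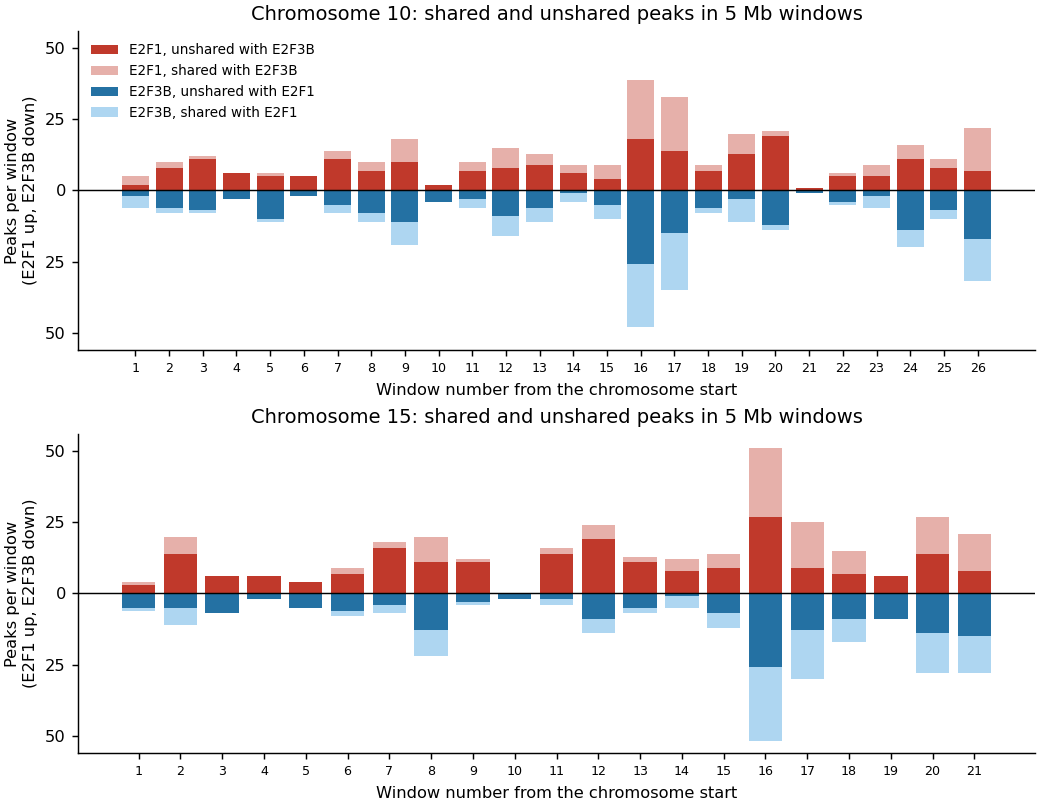
Peaks per 5 Mb window (y axis; E2F1 peaks drawn upward, E2F3B peaks downward) on chromosomes 10 and 15, with dark bars for unshared and pale bars for shared peaks and windows numbered from the chromosome start (x axis). Shared peaks gather in windows 16, 17 and 26 of chromosome 10 and in windows 16, 17, 20 and 21 of chromosome 15, and dark red bars exceed dark blue bars in windows 11 to 14 of chromosome 15.

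E2F3A peaks offered a measure of window density that did not enter the choice. The median autosomal window held 3 E2F3A peaks. In windows above that median, the ratio of E2F1 to E2F3B peaks was 1.05 on chromosome 10, 1.09 on chromosome 15 and 0.739 on the other autosomes. In windows at or under it the ratio was 1.03 (36 against 35 peaks), 1.70 (51 against 30) and 0.797 in the same order. Of the E2F1 peaks in these sparse windows of chromosome 15, 9.80% (4.26 to 21) were shared with E2F3B, against 34.7% (31.9 to 37.6) in sparse windows of the other autosomes. The share in the sparse windows of chromosome 10 was 27.8% (15.8 to 44.0), an interval that holds the value of the other autosomes. The sparse set held only 5 windows of chromosome 15 and 6 of chromosome 10. Sparse here means few E2F3A peaks and not few E2F1 peaks. Those 5 windows held 51 E2F1 peaks, while 270 such windows of the other autosomes held 1090. The ratios and shares inside the windows are still the E2F1 to E2F3B contrast that chose the chromosomes. E2F3A itself was spread more evenly than E2F1 on chromosome 10, with 40, 30, 45 and 37 peaks in the 4 equal parts, while E2F1 had 58, 68, 129 and 76.

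Peak width stood in for the missing scores. Unshared E2F1 peaks of the 2 chromosomes had a median width of 572 bp (quartiles 498 and 658 bp) and shared ones 754 bp (600 and 968 bp). On the other autosomes the medians were 570 bp for unshared and 697 bp for shared E2F1 peaks. The many unshared E2F1 peaks of chromosomes 10 and 15 were thus about as wide as unshared E2F1 peaks elsewhere. Unshared E2F3B peaks also had near medians, 339 bp here and 338 bp elsewhere, and shared E2F3B peaks had 443 bp and 422 bp.

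Within 4 width classes set by the quartiles of the whole E2F1 list, sharing with E2F3B was lower on the chosen chromosomes in each class. In the narrowest class it was 19.1% (13.7 to 26) on both together, against 31.8% (28.6 to 35.2) on the other autosomes. In the second class the values were 18.9% (13.8 to 25.3) and 26.2% (23.2 to 29.5). In the third class they were 37.1% (29.6 to 45.2) and 47.9% (44.5 to 51.5), and in the widest class 66.5% (59.3 to 73.0) and 74.1% (70.9 to 77.1). The intervals of the pair and of the other autosomes overlapped in all but the narrowest class. In that class chromosome 10 alone had 22.8% (15.4 to 32.4), an interval that overlapped that of the other autosomes. Chromosome 15 had 13.8% (7.46 to 24.3) there. No difference in these shares was tested. Splitting by width does not make these shares independent of the ratio that chose the chromosomes. Chromosomes of low share that were not chosen, such as chromosome 3, were not split by width on their own. Peak width is also set by fragment length and by the peak caller.

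**Figure D5:**
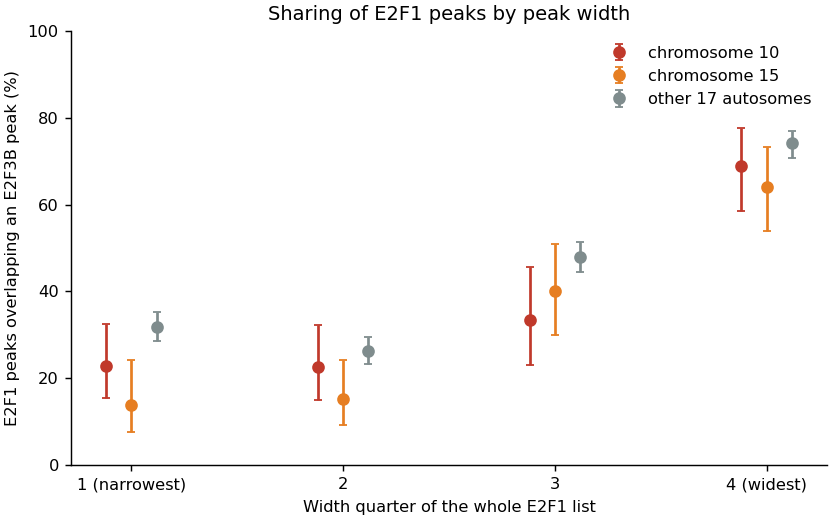
Share of E2F1 peaks that overlap an E2F3B peak (y axis, %, with 95% Wilson intervals) in 4 width classes of the whole E2F1 list (x axis), for chromosome 10, chromosome 15 and the other 17 autosomes. Sharing is highest in the widest class everywhere, and the points of both chromosomes lie below those of the other autosomes in each class. These shares are not independent of the ratio that chose the chromosomes.

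Single sites on these chromosomes ranged from sites of all 3 proteins to sites of E2F1 alone, given here in mm9 coordinates. Among the widest regions of all 3 proteins, chr10:127495138-127496633 had an E2F1 peak of 1496 bp, an E2F3A peak of 314 bp and an E2F3B peak of 530 bp, and chr10:90643584-90645154 had peaks of 1482, 673 and 1316 bp in that order. The widest on chromosome 10, chr10:4540177-4542114, held 1 E2F1 peak and 2 peaks of each E2F3 isoform. On chromosome 15 the widest was chr15:38229983-38231567, with peak widths of 1585, 409 and 542 bp. It was followed by chr15:68089466-68090948 with 1483, 487 and 873 bp, inside the middle stretch where E2F1 peaks outnumbered E2F3B peaks. Next was chr15:77800409-77801790 with 1382, 395 and 437 bp, inside the densest window. In each of these regions the E2F1 peak was the widest.

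The widest regions of E2F1 alone were chr10:59341809-59343153 (1345 bp), chr10:40068303-40069375 (1073 bp) and chr10:81106063-81107125 (1063 bp). On chromosome 15 they were chr15:57908023-57909278 (1256 bp), chr15:13102062-13103298 (1237 bp) and chr15:57743510-57744733 (1224 bp). The first and last of these lay in the same window from 55 to 60 Mb, where 19 of 24 E2F1 peaks were unshared with E2F3B. That window also held the widest E2F3A peaks of the chromosome, chr15:57966326-57967186 and chr15:55388704-55389399 (696 bp), both of them called for all 3 proteins, also with centres within 100 bp. Sites of E2F1 alone and of all 3 proteins thus lay in the same window.

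Among the other widest peaks of each list, some were held by fewer lists. The E2F1 peaks chr10:80260385-80261927 (1543 bp) and chr10:118675886-118677425 (1540 bp), and chr15:74538849-74540356 (1508 bp), overlapped E2F3B and not E2F3A. The first of them lay over the E2F3B peak chr10:80260563-80261626 (1064 bp). The E2F3A peak chr10:6372306-6372985 (680 bp) and the third widest of chromosome 15, chr15:9000485-9001089 (605 bp), overlapped both other lists. The widest E2F3B peak of chromosome 15, chr15:103069579-103070740 (1162 bp), overlapped E2F3A and not E2F1, and chr15:102235692-102236539 (848 bp) overlapped E2F1 and not E2F3A. By both stricter criteria the former had no match, while the latter still matched E2F1. Which genes or sequence motifs lie there was not analysed here, as the reference tables were of another build than mm9.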

How the data were processed

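The deposited values are peak positions, given as chromosome, start, end and name, 1 list per sample. Nuclei were sonicated, complexes isolated with antibody, and libraries amplified by PCR and selected on a gel, per the labels' protocols. Per the submitters' processing notes, the tools were Bowtie2 and SAMtools and the build was mm9. The peak names carry the name MACS; its version, its threshold and any control sample were not given in the sources used here. The files hold no score or read count, so depth was unknown. No scaling between lists was applied, and a stricter threshold for 1 list would move each ratio.

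Starts were taken as 0-based and printed with 1 added. Density used the span from the first to the last peak of any list. Ratio intervals are the Wilson bounds of the share a / (a + b). Named features followed a fixed rule: per chromosome, the 3 windows of largest and of smallest E2F1 minus E2F3B count, the window densest in each list, the 3 widest peaks per list, and the 3 widest regions held by all lists or by E2F1 alone. The chromosomes, windows and lists were chosen with earlier results of these data known. Alternatives varied the overlap criterion, the window, the unit counted and the peaks kept. Counting was tested on 20 simulated sets, and the planted counts were recovered in 20. Versions were pandas 2.3.3, scipy 1.17.1, numpy 2.4.6, matplotlib 3.10.9 and Python 3.11.15.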

Additional observations from a re-analysis of the deposited data

How the results depend on the processing

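No alternative was compared by a test, as each protein had 1 library. Of 124 alternative values for 32 results, 75 stayed within the interval of the main value or, where none was made, within 1.5 times of it, 46 moved and 3 changed side of 1. The ratio of chromosome 10 was 0.888 with the 50% widest peaks of each list, ranking 7 of the 19 autosomes, 0.972 without the 3 windows of largest difference, and 1.11 (rank 6) with each list cut to its 1998 widest peaks. Chromosome 15 was first in each version of the lists, at 1.42 at that length. The other autosomes gave 0.958 at equal length and 0.707 without the 3 windows of each. On chromosome 10 the ratio of unshared peaks was 0.845 with the 50% widest peaks. With equal numbers of widest peaks it was 1.5 on both chromosomes together, against 0.949 on the others, which had 0.703 with centres within 100 bp.

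With counts divided by their totals on the other autosomes, E2F1 led in 88.5% of the windows of chromosome 10, 81.0% of those of chromosome 15 and 47.0% elsewhere. The 3 leading windows held 20.6% of the surplus of chromosome 10 and 26.1% of that of chromosome 15 with 2 Mb windows, and 75% and 72.1% with 10 Mb windows, which are fewer. With centres within 100 bp, 19.6% of E2F1 peaks of the chosen pair were shared with E2F3B, against 24.8% elsewhere, and 21.4% of E2F3B peaks with E2F1, against 18.8%. With 50% reciprocal overlap these were 23.7% against 29.4%, and 26% against 22.3%. Within 500 bp, 38.2% of E2F3B peaks elsewhere were shared. With the 50% widest peaks, 40.4% of E2F1 peaks of the pair and 45.1% elsewhere were shared. Of E2F3B peaks, 34.9% were then shared on chromosome 10 and 50.7% on chromosome 15, against 35.9% elsewhere. With equal numbers of widest peaks, 38.2% of E2F1 peaks of the pair and 41.2% elsewhere were shared. That gap was smaller than the one over whole lists, 35.9% against 45%. Of E2F3B peaks, 48.4% of the pair and 40.7% elsewhere were shared at equal numbers. Shared E2F1 peaks were wider than unshared ones by 90 bp on the pair and 57.5 bp elsewhere with reciprocal overlap, and by 65.0 bp elsewhere with centres within 100 bp. Unshared E2F1 density ranked 1 on chromosome 15 under each criterion and 2 on chromosome 10, or 3 with centres within 100 bp. No paired analysis was possible because the 3 proteins had 1 library each.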

Other observations

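Each list had long stretches without a peak in which the other lists had peaks. The longest on chromosome 15 without an E2F1 peak ran from 44726876 to 50620544 (5.89 Mb) and held 8 E2F3A and 3 E2F3B peaks, inside the stretch where E2F1 peaks outnumbered E2F3B peaks. The longest there without an E2F3A peak, from 40507949 to 45854768 (5.35 Mb), held 11 E2F1 and 3 E2F3B peaks. Without an E2F3B peak it was 15984403 to 21188356 (5.20 Mb), with 7 E2F1 and 3 E2F3A peaks. On chromosome 10 the longest stretch without an E2F1 peak, from 45389700 to 50311912 (4.92 Mb), held 2 E2F3A and 3 E2F3B peaks, and the one without an E2F3B peak, from 25079788 to 29920042 (4.84 Mb), held 5 E2F1 and 5 E2F3A peaks.

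Unshared peaks of the 2 chromosomes lay at different distances from the other list. An unshared E2F1 peak had its nearest E2F3B peak at a median of 122 kb, against 124 kb on the other autosomes, and 8.59% (interval 6.27 to 11.7) lay within 10 kb of one, against 10.4% (8.99 to 11.9). An unshared E2F3B peak had its nearest E2F1 peak at a median of 68.6 kb, against 133 kb, and 61.3% (56.1 to 66.2) lay within 100 kb of one, against 42.0% (40.1 to 43.9). E2F1 peaks were denser here than elsewhere, which by itself shortens the distance to the nearest E2F1 peak. How far this accounts for the shorter distance was not tested.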
